A study of Disanthus cercidifolius subsp. longipes with 9 samples.

Results

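The evening arm of the plant circadian clock was followed through leaf development in *Disanthus cercidifolius* var. *longipes*, a deciduous shrub of China. Transcript clusters were taken when the name of their Swiss-Prot match was APRR5 (PRR5), APRR1 (TOC1) or GIGANTEA, the proteins of *Arabidopsis* that give these genes their names. The rule found 21 of 24385 clusters, with 7 APRR5, 5 APRR1 and 9 GIGANTEA matches, and 6 of the 21 (Cluster-43012.5, Cluster-43012.3, Cluster-17921.0, Cluster-31160.0, Cluster-37318.2 and Cluster-55214.1) were listed for full description. These genes were selected on their measured rise between F1 and F3 in these same 9 libraries, so their levels and fold changes at all stages are given as a description, with no test, and tests are given only for other clock genes.

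Leaf mRNA of the stages F1, F2 and F3 was sequenced, 3 libraries to a stage. The study describes F1 as young unfolded leaves, F2 as near-mature leaves whose area had just reached its maximum, and F3 as fully mature leaves. All came from nursery plants raised from stem cuttings, and the leaves nearest the tips of sun-facing branches were taken on sunny mornings. The study dates the stages about a month apart in spring and early summer, while the labels give July 20, 23 and 26. The hour of collection is not given in the sources used here, so stage, date and hour cannot be told apart. Leaves came from 3 trees with 5 branches each, but no source says which tree gave which library, and p-values measure only the spread between these libraries.

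In *Arabidopsis* the clock is a ring of repressors that follow each other through the day. MYB factors such as LHY are made around dawn and hold down the evening genes, and the pseudo-response regulators PRR9, PRR7, PRR5 and TOC1 then appear in turn and hold down the MYB factors. GIGANTEA, a large protein made towards dusk, works with the F-box proteins ZEITLUPE and FKF1, which mark clock and flowering regulators for breakdown. Transcripts of most of these genes swing with the hour, so that a single collection time shows a single phase of the cycle, while that of ZEITLUPE is nearly even through the day.

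All 3 evening genes were highest in the mature leaves. Levels are in the authors' FPKM, fragment counts scaled by transcript length and library size, and were summed over all clusters of a gene. Short clusters such as Cluster-17921.0 (647 bases) and Cluster-55214.9 (755 bases) have more FPKM for their counts than full length alone would give. They therefore weigh more in the sums. The APRR5 sum had a mean of 7.77 ± 0.72 FPKM at F1 (SD, n = 3 libraries), 15.2 ± 1.02 at F2 and 284 ± 5.96 at F3. The GIGANTEA sum went from 15.96 ± 2.11 at F1 through 27.1 ± 0.94 at F2 to 86.4 ± 4.46 at F3. The APRR1 sum was lower throughout, going from 1.20 ± 0.18 FPKM at F1 through 1.32 ± 0.27 at F2 to 22.1 ± 1.22 at F3. The order of the genes therefore turned: GIGANTEA lay above APRR5 and APRR5 above APRR1 at F1 and F2, and APRR5 lay above GIGANTEA and GIGANTEA above APRR1 at F3, with no overlap between the libraries of neighbouring genes at any stage.

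**Figure D1:**
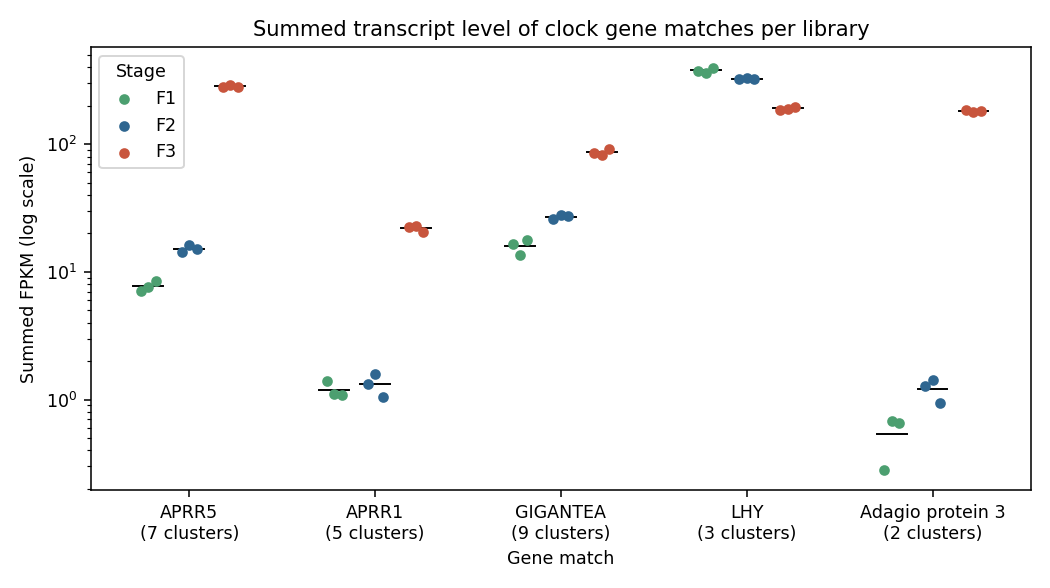
Summed FPKM (log scale) of the matches to APRR5, APRR1 and GIGANTEA and, for comparison, LHY and Adagio protein 3, with 1 point per library and a bar at the stage mean. The 3 evening genes and Adagio protein 3 have their highest points at F3, while the LHY sum falls from 378 FPKM at F1 to 191 FPKM at F3.

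Most of the rise came between F2 and F3. From F1 to F3 the APRR5 sum was 36.5-fold higher, a log2 ratio of stage means of 5.19 ± 0.08 (SE), and the part from F2 to F3 was 4.22 ± 0.06. The APRR1 sum was 18.5-fold higher at F3 than at F1, a log2 ratio of 4.21 ± 0.13, of which F2 to F3 held 4.06 ± 0.18. The GIGANTEA sum was 5.41-fold higher, a log2 ratio of 2.44 ± 0.12, and rose by 1.67 ± 0.05 from F2 to F3. From F1 to F2 the log2 ratios were 0.97 ± 0.10 for APRR5 and 0.76 ± 0.11 for GIGANTEA, with no overlap between the libraries. For APRR5, the 5 clusters of the number Cluster-43012 alone gave a smaller ratio of 0.61 ± 0.13. The rest of the APRR5 sum came from Cluster-17921.0 and Cluster-31160.0, whose names are less certain. APRR1 had a ratio of 0.14 ± 0.21 with overlapping libraries, and its sign turned when the summed counts were scaled by RLE, relative log expression (-0.0076), or when F2 replicate 2 was left out (-0.014).

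Over all 21 clusters, 20 were highest at F3, as were 41.1% of all clusters of the table. Every F3 library lay above every F1 library in 20 clusters and below in 1, against 42.3% and 38.8% of the table. Between F2 and F3 this held for 19 clusters above and 0 below, against 38.6% and 40.3%, and between F1 and F2 for 7 above and 1 below, against 32.5% and 31.9%. The F1 to F3 counts were known when the genes were chosen, and since the other comparisons share libraries with that one, nothing is read from any of these counts. The median log2 fold change of the 21 clusters was 0.77 between F1 and F2, 5.20 between F1 and F3, and 3.90 between F2 and F3, beside 0.17, 0.00 and -0.37 over all clusters. With clusters at 0 counts in a stage set to a floor of 3 counts per library, these medians were 0.77, 5.18 and 3.90.

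APRR5 belongs to the pseudo-response regulators, which carry a receiver-like domain at one end and a CCT motif, named after CONSTANS, CONSTANS-LIKE and TOC1, at the other. Its matches carried 3 cluster numbers, and 5 of the 7 shared the number Cluster-43012. Cluster-43012.5, of 3852 bases, was the most abundant of all 21. It had 3.04, 4.24 and 5.24 FPKM in replicates 1 to 3 of F1, then 5.85, 6.50 and 5.83 at F2, and 166.62, 166.44 and 161.26 at F3. The 3 mature libraries lay far above the other 6, and the F2 libraries lay just above those of F1 without overlap. By edgeR the log2 fold change was 0.58 ± 0.16 (SE) between F1 and F2, 5.18 ± 0.18 between F1 and F3, and 4.60 ± 0.17 between F2 and F3. The level rested on 1121 counts at F1, 1690 at F2 and 43785 at F3 over the 3 libraries of a stage.

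Cluster-43012.3, a longer transcript of 5330 bases, followed at a lower level. Its libraries had 1.43, 1.51 and 0.91 FPKM at F1, 1.33, 1.63 and 2.47 at F2, and 41.44, 39.06 and 45.42 at F3. F1 and F2 overlapped and F3 stood above both. The log2 fold change was 0.52 for F1 to F2, 4.91 for F1 to F3 and 4.39 for F2 to F3. The deposited Pfam column gave Cluster-43012.5 and Cluster-43012.2 a CCT motif and the other 3 clusters of the number a receiver domain, so that no cluster of this number was annotated with both ends of the protein.

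The remaining clusters of the number were scarce in young leaves. Cluster-43012.0 had 0 to 0.26 FPKM at F1, 0 to 0.46 at F2 and 11.81 to 13.15 at F3. Cluster-43012.2 had up to 0.19 FPKM at F1, 0.47 to 0.76 at F2 and 3.12 to 7.92 at F3, and its 3 stages did not overlap. Cluster-43012.1 reached 1.09 to 2.76 FPKM at F3 after at most 0.17 in any earlier library. Together the 5 clusters had 5.71 ± 0.81 FPKM at F1, 8.71 ± 0.50 at F2 and 226 ± 2.47 at F3. Their make-up moved little: Cluster-43012.5 held 72.2% ± 9.41 of the number's FPKM at F1, 69.6% ± 3.50 at F2 and 72.8% ± 1.21 at F3.

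A pair of other APRR5 matches stood alone under their numbers, and their names were less certain. Cluster-17921.0 is a short cluster of 647 bases, and it had 1.49, 1.53 and 0.97 FPKM at F1, 5.17, 5.80 and 3.80 at F2, and 32.79, 40.11 and 32.47 at F3. The 3 stages did not overlap, and the log2 fold change was 1.95 ± 0.28 between F1 and F2 and 4.61 ± 0.29 from F1 to F3. The F1 value rests on only 39 counts in all. Cluster-31160.0 had 0.77, 0.25 and 1.15 FPKM at F1, 0.95, 1.41 and 2.37 at F2, and 21.39, 21.05 and 23.96 at F3. Its F1 and F2 libraries overlapped, and its log2 fold change from F1 to F3 was 5.30 ± 0.40. KEGG placed both with PRR5, but the text of their matches named APRR9 or PRR95, the names of the neighbouring regulator that acts earlier in the day, and neither had a Pfam domain. Whether they are PRR5 or a relative is uncertain.

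KEGG also gave the PRR5 ortholog to 3 clusters that the name rule did not take. Cluster-41712.0, named PRR37 by Swiss-Prot, had 1.33 FPKM on average at F1, 4.13 at F2 and 27.3 at F3. Cluster-39639.0, without a Swiss-Prot name and called APRR9 by its NR match, had 1.19, 2.82 and 20.3 FPKM. Cluster-29666.0, also without a name, had 0.14, 0.41 and 14.7 FPKM. Summed over the 10 clusters of this ortholog, the level was 10.4 ± 1.33 FPKM at F1, 22.6 ± 1.22 at F2 and 346 ± 6.02 at F3. By this wider definition the log2 ratio from F1 to F3 was 5.05, against 5.19 for the name rule.

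APRR1 is TOC1, the last of the pseudo-response regulators in the daily sequence and a repressor of LHY and CCA1 in *Arabidopsis*. All 5 matches shared the number Cluster-37318. The main cluster, Cluster-37318.2 of 3771 bases, had 0.65, 0.27 and 0.14 FPKM at F1, 1.25, 1.22 and 0.61 at F2, and 16.57, 17.84 and 17.43 at F3. The libraries of F1 and F2 overlapped, since F2 replicate 3 lay below F1 replicate 1, and those of F3 stood apart. The log2 fold change was 1.66 ± 0.45 for F1 to F2, 5.56 ± 0.45 for F1 to F3 and 3.90 ± 0.40 for F2 to F3.

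A sister cluster ran the other way. Cluster-37318.3, of 3753 bases, was singled out after its values had been seen. It had 0.73, 0.78 and 0.88 FPKM at F1, 0, 0.22 and 0.22 at F2, and 0 in all 3 libraries of F3. Its counts were 206, 38 and 0 over the stages, so its level was at least 24.7-fold lower at F3 than at F1 against a floor of 3 counts per library. At F1 it made up 68.0% ± 14.8 of the FPKM of its number and Cluster-37318.2 made up 27.9% ± 17.02. At F2 the shares were 11.6% ± 10.7 and 76.5% ± 18.3, and at F3 they were 0% and 78.4% ± 5.57. The APRR1 sum thus moved by less than its spread from F1 to F2, while the leading cluster of its number was another. The F1 shares spread widely, from 52.1% to 81.5% for Cluster-37318.3, and counts per library were low.

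The last 3 APRR1 clusters appeared almost only in mature leaves. Cluster-37318.1 had at most 0.10 FPKM in the F1 and F2 libraries and 1.68 to 2.75 at F3. Cluster-37318.0 had 0 counts in all 6 libraries of F1 and F2 and 0.36 to 2.20 FPKM at F3, which makes it at least 38.8-fold higher than at F1. Cluster-37318.4 had 0 counts at F1, up to 0.16 FPKM at F2 and 0.15 to 1.67 at F3, and its lowest F3 library lay within the F2 range. All 5 carried a receiver domain in the Pfam column.

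**Figure D2:**
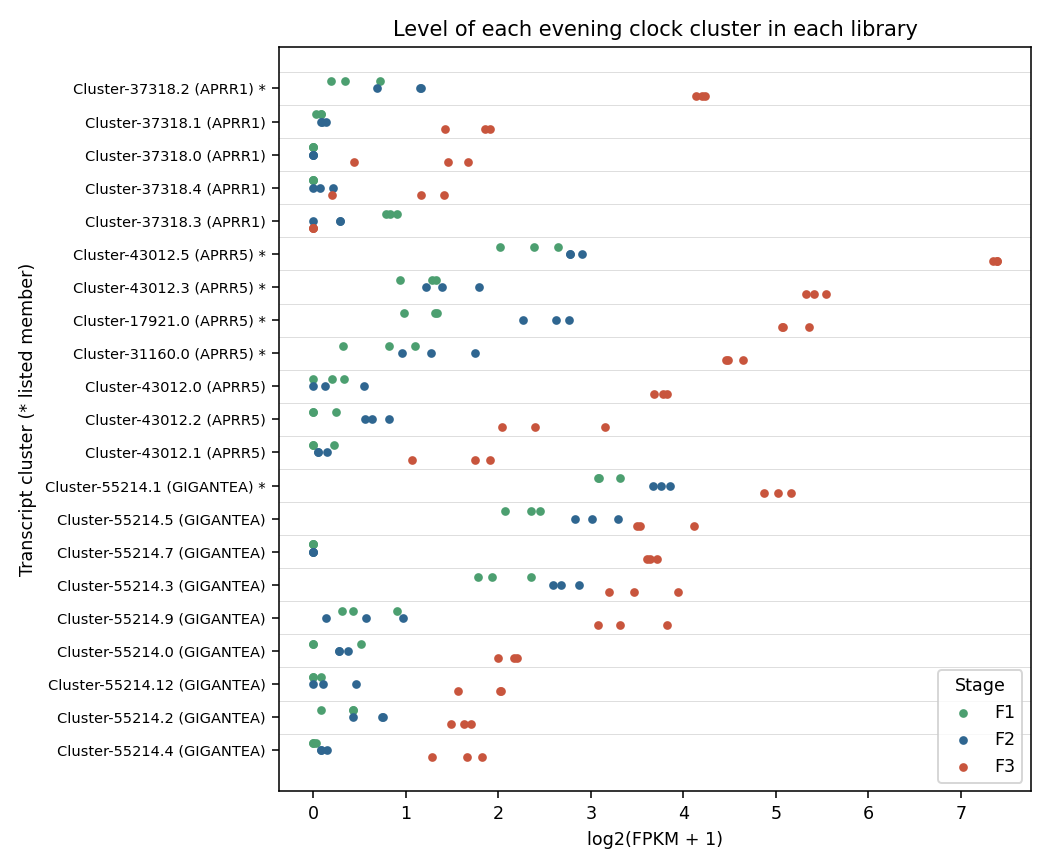
Level of each of the 21 clusters as log2(FPKM + 1), with 1 point per library and stages in colour; listed clusters carry an asterisk. The F3 points lie to the right of the F1 points in every row but that of Cluster-37318.3, whose F3 points are at 0.

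GIGANTEA had its 9 matches under the single number Cluster-55214 and had the smallest log2 ratio of the 3 sums at F3 against either earlier stage, though not between F1 and F2. Cluster-55214.1, of 3917 bases, had 7.47, 7.51 and 8.99 FPKM at F1, 11.75, 12.57 and 13.51 at F2, and 31.44, 28.34 and 34.72 at F3. The stages did not overlap and rose in order. The log2 fold change was 0.70 ± 0.09 for F1 to F2, 1.16 ± 0.09 for F2 to F3 and 1.85 ± 0.09 for F1 to F3, the smallest F1 to F3 value among the 6 listed clusters. It was also the listed cluster with the highest level in young leaves.

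The longer GIGANTEA transcripts differed in how much of the gene's level they carried. Cluster-55214.5 had 3.21 to 4.46 FPKM at F1, 6.12 to 8.84 at F2 and 10.34 to 16.34 at F3. Cluster-55214.3 had 2.45 to 4.12 FPKM at F1, 5.03 to 6.30 at F2 and 8.16 to 14.43 at F3. Both rose without overlap at each step, as Cluster-55214.1 did. Cluster-55214.7, of 7285 bases, had 0 counts in the 6 libraries of F1 and F2 and 11.17, 12.16 and 11.50 FPKM at F3, a level at least 610-fold higher than at F1 and at least 606-fold higher than at F2. Cluster-55214.9, a fragment of 755 bases, had 0.24 to 0.88 FPKM at F1, 0.10 to 0.96 at F2 and 7.43 to 13.17 at F3.

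Smaller amounts were seen in the last 4 clusters. Cluster-55214.0 and Cluster-55214.12 had 2.98 to 3.60 and 1.96 to 3.07 FPKM at F3. Cluster-55214.2 and Cluster-55214.4 had 1.80 to 2.25 and 1.44 to 2.53 FPKM at F3. None of these 4 exceeded 0.69 FPKM in a library of F1 or F2. The share of Cluster-55214.1 in the number went from 50.3% ± 4.74 at F1 to 46.6% ± 2.76 at F2 and 36.4% ± 1.84 at F3, and the libraries of F3 lay below those of the other stages. At F3 Cluster-55214.7 held 13.5% ± 1.15 and Cluster-55214.9 held 11.3% ± 2.80. The short Cluster-55214.9 rested on only 208 of the 26208 counts of the number at F3. Its share of the FPKM is thus far above its share of the counts. The GIGANTEA rise from F1 to F3 was therefore larger in the sum, 2.44 on the log2 scale, than in Cluster-55214.1 alone, 1.98 as a ratio of stage means.

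**Figure D3:**
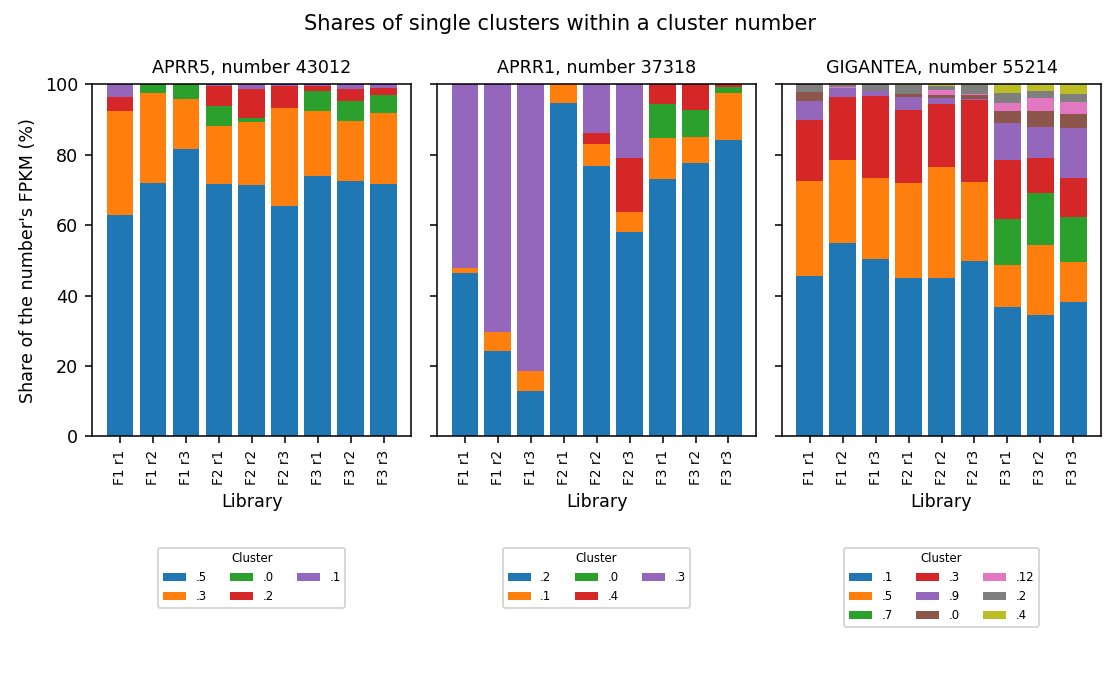
Share of each cluster in the summed FPKM of its number, in percent, with 1 stacked bar per library. Cluster-43012.5 keeps between 62.9% and 81.7% of its number in every library, Cluster-37318.3 (purple, middle panel) goes from 52.1% or more at F1 to 0% at F3, and Cluster-55214.7 (green, right panel) is present at F3 only.

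Among the 6 listed clusters the order of levels changed with the stage. At F1 Cluster-55214.1 and Cluster-43012.5 led with 7.99 ± 0.87 and 4.17 ± 1.10 FPKM. Cluster-17921.0 and Cluster-43012.3 followed with 1.33 and 1.28 FPKM and overlapped, as did Cluster-31160.0 and Cluster-37318.2 with 0.72 and 0.35. At F3 Cluster-43012.5 led with 165 ± 3.04 FPKM. Cluster-43012.3 (42.0), Cluster-17921.0 (35.1) and Cluster-55214.1 (31.5) came next, each overlapping its neighbour in the order. Cluster-31160.0 with 22.1 ± 1.59 FPKM and Cluster-37318.2 with 17.3 ± 0.65 closed it, apart from the rest and from each other. In all, 13 of the 21 clusters were under 1 FPKM on average at both F1 and F2, and 20 reached 1 FPKM in a stage, so for most of them the young-leaf value rests on few counts. Clusters of 1 number may share reads, which was not tested.

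Other clock genes were taken from 8 lists of Swiss-Prot names and from the KEGG pathway of the plant circadian rhythm, and these were tested. All clusters analysed here had been found changed by the authors in at least 1 comparison of these stages. Calls, adjusted p-values and shares over all clusters therefore hold only within clusters already picked for change, and not for all transcripts of the leaf. A change counts as called, and a cluster as having risen or fallen, where edgeR gave at least a 2-fold difference and an adjusted p (Benjamini-Hochberg) under 0.05. Between F1 and F2, 14 of the 40 clusters in the name lists rose and 3 fell, where 22.0% of all clusters were called up and 18.8% down. From F1 to F3, 18 rose and 4 fell, against 35.0% and 34.7% of all clusters. From F2 to F3, 20 rose and 10 fell, against 29.5% and 35.8%. The tallies of the single lists have these same shares as their background, and as they hold 10 clusters or fewer, no list is set apart from all clusters by its tally. The balance of calls over all clusters turned with the scaling: between F1 and F2 it was 5361 up and 4594 down with TMM, the trimmed-mean scaling used throughout, 4330 and 5316 with RLE, and 4529 and 5482 with DESeq2. Between F2 and F3 it was 7184 and 8739 with TMM, 7898 and 7672 with RLE, and 7868 and 7780 with DESeq2. The median log2 fold change of the 40 clusters was 0.51, 1.13 and 1.14 for F1 to F2, F1 to F3 and F2 to F3. No cluster was named after the rice evening regulators PRR1 and PRR59.

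Among the morning MYB factors, the dawn-phased counterparts of the evening genes, the most abundant LHY cluster fell from F1 to F3. Cluster-25707.3 had 358, 352 and 381 FPKM at F1, 304, 305 and 302 at F2, and 179, 180.5 and 183 at F3. The stages did not overlap, and its F1 to F3 log2 fold change of -1.13 ± 0.04 was called (edgeR adjusted p = 1.80e-08). At 181 FPKM in mature leaves, LHY still stood at about the level of Cluster-43012.5. Cluster-25707.5, also LHY, had 14.8 FPKM at F1, 19.3 at F2 and 8.68 at F3, and only its F2 to F3 change of -1.32 ± 0.20 was called (adjusted p = 0.000385). Cluster-25707.8, the last LHY match and named after its values were seen, ran the other way from a low level, with 0 counts at F1, 0.77 to 2.30 FPKM at F2 and 0.83 to 1.97 at F3, and was called up from F1 to either later stage. No LHY cluster was called down between F1 and F2. All 3 LHY clusters together went from 378 ± 17.9 FPKM at F1 to 324 ± 2.62 at F2 and 191 ± 4.60 at F3. REVEILLE 1, a MYB factor that links the clock to auxin in *Arabidopsis*, went the other way: Cluster-32083.0 had 31.2, 17.5 and 76.0 FPKM, with a log2 fold change from F1 to F3 of 1.10 ± 0.07 (adjusted p = 6.48e-07). Without F3 replicate 3 it was 0.997, just under the fold needed for a call. In this list of 7, 3 rose and 1 fell from F1 to F3, 1 rose from F1 to F2, and 2 rose and 1 fell from F2 to F3.

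The list of day pseudo-response regulators held clusters that peaked at different stages. Most are named after regulators that act before PRR5 and TOC1 in the daily sequence, but Cluster-15915.0 is named after APRR3. Cluster-50790.1, named after rice PRR73, had 10.04, 13.02 and 10.87 FPKM at F1, 43.0, 40.9 and 45.4 at F2, and 16.1, 12.7 and 17.5 at F3. The F2 libraries stood alone, a log2 rise of 1.97 ± 0.13 above F1 (adjusted p = 4.20e-06) and -1.65 ± 0.13 on to F3 (adjusted p = 5.38e-06). Cluster-41712.0, the PRR37 match that KEGG gives to PRR5, rose at both steps, by 1.68 ± 0.30 from F1 to F2 and 2.55 ± 0.28 from F2 to F3. Cluster-50790.4, another PRR37 match, had 4.14 FPKM at F1, 8.72 at F2 and 11.0 at F3. Its change from F1 to F2 of 1.13 ± 0.27 was called (adjusted p = 0.0078), but not with RLE scaling (0.97) or without F1 replicate 2 (0.85). The 8 clusters of the number Cluster-50790 summed to 23.0 FPKM at F1, 60.7 at F2 and 48.6 at F3. Of the 10 clusters in this list, 7 rose and 1 fell from F1 to F2, 5 rose and 0 fell from F1 to F3, and 5 rose and 2 fell from F2 to F3.

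The partners of GIGANTEA rose with it. Adagio protein 3 is FKF1, a blue-light receptor and F-box protein that binds GIGANTEA in *Arabidopsis*, and its Cluster-24888.1 had 0.28, 0.68 and 0.54 FPKM at F1, 1.21, 1.37 and 0.92 at F2, and 175, 169 and 170 at F3. The 3 mature libraries were more than 100-fold above all others. The log2 fold change was 8.26 ± 0.22 from F1 to F3 (adjusted p = 3.87e-09) and 7.02 ± 0.20 for the step after F2 (adjusted p = 8.81e-09), larger in size than that of any of the 6 listed evening clusters. From F1 to F2 it was 1.24 ± 0.25, and it was no longer called without F1 replicate 1 (0.98). The second FKF1 match, Cluster-24888.0, went from at most 0.11 FPKM in the young and near-mature libraries to 9.38 to 11.3 at F3. Adagio protein 1, which is ZEITLUPE, rose less, from 0.72 FPKM at F1 and 0.98 at F2 to 3.21 at F3 in Cluster-49552.1, and its F1 to F3 log2 fold change was 2.04 ± 0.35 (adjusted p = 0.000729). All 3 clusters of this list were called up at F3 against either earlier stage, and 1 rose from F1 to F2.

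The evening complex, a repressor that acts at night, was represented by 2 clusters. Cluster-41482.7, a match to the ELF4 relative ELF4-LIKE 3, had 13.0 FPKM at F1, 28.8 at F2 and 16.5 at F3. It rose by 1.17 ± 0.08 from F1 to F2 (adjusted p = 4.29e-06), a change of 0.995 with RLE scaling and so at the edge of a call. Cluster-56364.0, a match to BOA, a close relative of the DNA-binding member LUX, had 0.64, 0.40 and 0.52 FPKM at F1, 0.76, 0.72 and 0.37 at F2, and 6.29, 5.87 and 6.12 at F3. Its log2 fold change of 3.27 ± 0.36 from F1 to F3 was called (adjusted p = 3.73e-05). From F2 to F3 it rose by 3.12 ± 0.35.

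LNK proteins are coactivators that switch on evening genes in *Arabidopsis*. Cluster-51694.4, the most abundant LNK1 match, fell from 83.4 FPKM at F1 and 70.9 at F2 to 39.0 at F3, with an F1 to F3 log2 fold change of -1.22 ± 0.06 (adjusted p = 1.52e-07). A second LNK1 cluster of the same number, Cluster-51694.2, had 22.1, 11.8 and 33.4 FPKM and rose by 1.34 ± 0.14 from F2 to F3. Summed over the number, LNK1 had 107 FPKM at F1, 83.4 at F2 and 77.0 at F3, and none of its changes reached the fold needed for a call. LNK2, in Cluster-45488.5, had 6.44 FPKM at F1, 14.4 at F2 and 8.91 at F3 and rose by 1.21 ± 0.17 from F1 to F2. Summed over the 3 LNK2 clusters of the number, that change was 0.92 ± 0.09 and was not called. The F2 to F3 change of the sum, -1.30 ± 0.10, was called. Of 7 LNK clusters, 1 rose from F1 to F2, 1 rose and 1 fell from F1 to F3, and 3 rose and 2 fell from F2 to F3.

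Clusters listed by name as flowering output, most of them CONSTANS-LIKE matches, moved in both directions. Whether these CONSTANS-LIKE matches act in flowering was not tested. Cyclic dof factors repress CONSTANS and are broken down through FKF1 and GIGANTEA in *Arabidopsis*, and the match to cyclic dof factor 2, Cluster-28938.0, rose from 22.6 FPKM at F1 and 26.5 at F2 to 67.9 at F3. Its log2 fold change from F1 to F3 was 1.46 ± 0.06 (adjusted p = 3.08e-08). CONSTANS-LIKE 6, in Cluster-35017.0, had 25.4 FPKM at F1, 71.3 at F2 and 15.9 at F3. CONSTANS-LIKE 4, in Cluster-26655.9, had 24.5, 51.8 and 16.3 FPKM with calls at each step, though its rise of 1.00 (log2) up to F2 sat on the fold threshold. Both were highest at F2, and on to F3 they fell by 2.32 and fell by 2.05 on the log2 scale. The number Cluster-26655 holds 9 clusters, and its other Swiss-Prot names are chloroplast fructose-bisphosphate aldolases. The number summed to 5451 FPKM at F1, 10263 at F2 and 4269 at F3, also highest at F2. Whether Cluster-26655.9 shares reads with the aldolase clusters was not tested. The last 3 clusters of the list were named after their values were seen. CONSTANS-LIKE 16, in Cluster-28334.0, which KEGG gives to PRR7, was also highest at F2, with 6.65, 13.8 and 0.88 FPKM. CONSTANS-LIKE 10, in Cluster-41518.0, had 0.39 FPKM at F1, 0 counts at F2 and 6.32 to 7.62 FPKM at F3. Cluster-39988.0, a match to HEADING DATE 3A, the rice counterpart of the flowering signal FLOWERING LOCUS T, had 1.53 to 3.50 FPKM at F1, 0 to 0.16 at F2 and 19.6 to 22.1 at F3. All 3 were called at each step, the first up and then down and the others down and then up. Of the 6 clusters in this list, 3 rose and 2 fell from F1 to F2 and again from F1 to F3, and 3 rose and 3 fell from F2 to F3.

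In the list of kinase subunits and light-signalling regulators, 0 of 5 clusters were called from F1 to F2 by edgeR, DESeq2 or limma, and 1 had an unadjusted edgeR p under 0.05. This was Cluster-40098.3, whose log2 fold change of -0.54 ± 0.09 had an adjusted p of 0.000752 and missed only the fold needed for a call. In the list 2 rose and 0 fell from F1 to F3, and 3 rose and 2 fell from F2 to F3. Matches to the casein kinase II subunit beta-1, part of the kinase that phosphorylates the dawn MYB factors, rose from F1 to F3 by 2.89 ± 0.63 in Cluster-52590.0 and by 3.19 ± 0.57 in Cluster-52130.2, both from under 1 FPKM. Cluster-52130.4, a match to subunit beta-4 named after its values were seen, did not, with 1.94, 2.82 and 1.66 FPKM. Its F2 to F3 change of -1.10 ± 0.37 was called (edgeR adjusted p = 0.0236), and its F1 to F3 change of -0.66 was not. Cluster-40098.3, named after the light-signalling ligase COP1 by Swiss-Prot but placed by KEGG with diphthine methyl ester acylhydrolase, had 12.2, 7.47 and 18.9 FPKM and rose by 1.09 ± 0.09 from F2 to F3. Cluster-52170.7, which both sources name COP1 (RFWD2), had 2.14, 2.98 and 1.39 FPKM, and its F2 to F3 change of -1.27 ± 0.23 was called (adjusted p = 0.00114).

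**Figure D4:**
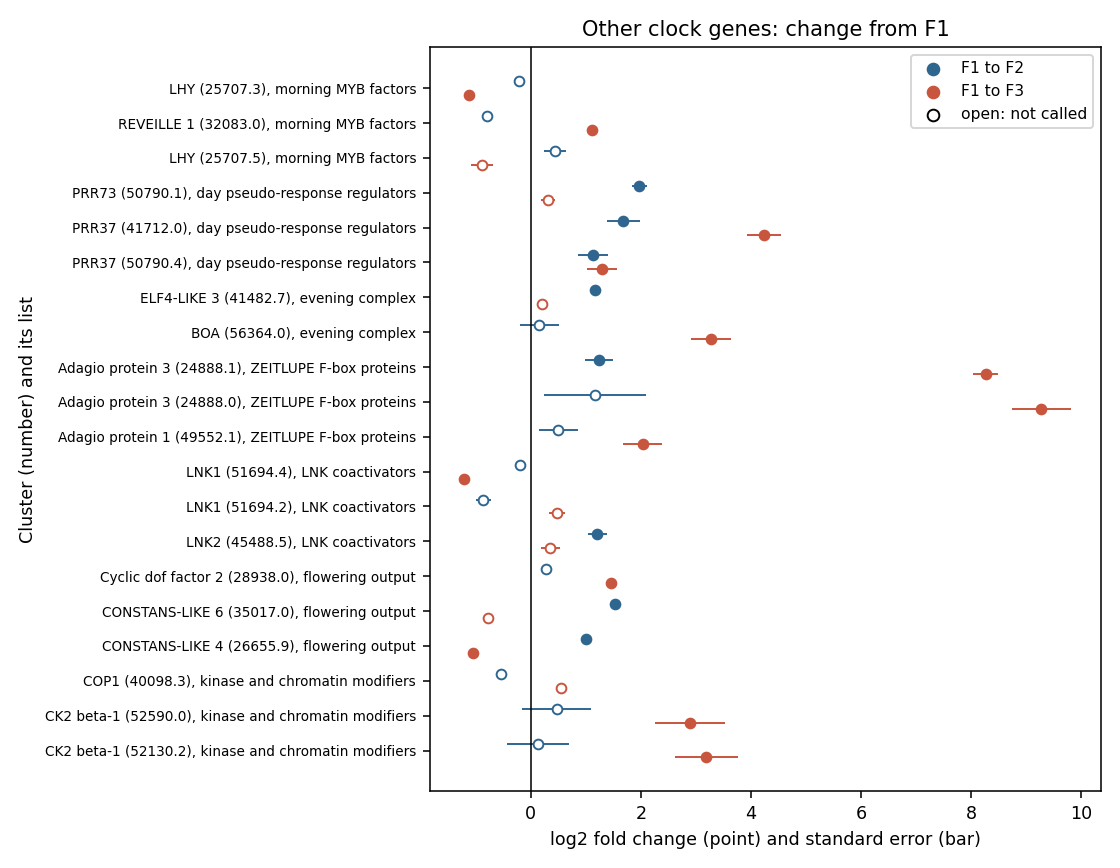
Log2 fold change from F1 to F2 (blue) and from F1 to F3 (red) of the most abundant clusters of each name list, with the standard error as a bar; filled points were called by edgeR. Adagio protein 3 lies far to the right from F1 to F3 at 8.26 and 9.27, and the LHY match Cluster-25707.3 lies to the left at -1.13.

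The KEGG pathway list held 88 clusters, 29 of them also in the name lists and 59 not. Of the 88, 23 rose and 21 fell from F1 to F2, 37 rose and 23 fell from F1 to F3, and 34 rose and 30 fell from F2 to F3. Its medians were 0.35, 0.83 and -0.13 on the log2 scale. The pathway ends in chalcone synthase, the entry enzyme of flavonoid synthesis, and 2 of its 3 most abundant members were chalcone synthases. Cluster-33434.4 had 592 FPKM at F1, 186 at F2 and 149.9 at F3, and Cluster-45237.0 went from 537 to 761 and then to 287 FPKM. The other was Cluster-25707.3, LHY. Over the union of all lists, 99 clusters, 25 rose and 21 fell from F1 to F2, 40 rose and 24 fell from F1 to F3, and 40 rose and 32 fell from F2 to F3. Calls in either direction thus made up 46.5%, 64.6% and 72.7% of the union, beside 40.8%, 69.7% and 65.3% of all clusters. The F1 to F2 split became 17 up and 23 down with RLE scaling and 18 up and 24 down with DESeq2.

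Genes of other functions whose profile over the 9 libraries was most like that of each evening gene were sought among 4578 named clusters with at least 10 FPKM in a stage. Likeness was the root-mean-square difference of log2(FPKM + 1) after centring. It compares the shape and size of a profile on that scale and not its function. The added 1 shrinks changes of clusters near or under 1 FPKM, so a near profile need not have a like fold change. Nearest to the APRR5 sum were the silicon transporter LSI2 in Cluster-43478.0 (0.14) and Cluster-43478.1 (0.25), cytochrome P450 71A9 in Cluster-34700.1 (0.14), ethylene-responsive factor 1A in Cluster-33838.0 (0.16) and caffeic acid 3-O-methyltransferase in Cluster-22823.7 (0.24). The P450, for example, had 1.97 FPKM at F1, 3.87 at F2 and 99.9 at F3. Cluster-43478.0 had 0.18, 0.81 and 30.7 FPKM, a steeper rise in fold than that of the APRR5 sum. Nearest to the APRR1 sum were a match to the mitochondrial protein AtMg00860 in Cluster-53032.6 (0.07), aldehyde dehydrogenase 2C4 in Cluster-56737.0 (0.10), chloroplast cysteine synthase in Cluster-33372.3 (0.11), alpha-glucan phosphorylase H in Cluster-29024.0 (0.11) and the ubiquitin ligase RGLG3 in Cluster-33977.4 (0.11). The phosphorylase, which breaks down glucans, had 19.9, 20.5 and 198 FPKM.

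Nearest to the GIGANTEA sum were the receptor kinase EFR in Cluster-3082.5 (0.09), FRIGIDA-like protein 3 in Cluster-51874.1 (0.10), a pentatricopeptide repeat protein of the chloroplast in Cluster-43580.0 (0.11), SAUR36 in Cluster-29811.0 (0.12) and the rust resistance kinase Lr10 in Cluster-15569.9 (0.12). The EFR match had 10.9, 17.5 and 63.7 FPKM. None of these 15 clusters was in a clock list. These 15 were taken as the nearest of the pool. Among the evening genes themselves the difference was 0.68 between APRR5 and APRR1, 0.71 between APRR1 and GIGANTEA and 1.22 between APRR5 and GIGANTEA.

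The libraries and the tissue bear on all these values. Total counts over the table were 10353544 to 12253518 per library at F1, 9581197 to 14284676 at F2 and 8657054 to 10311846 at F3, and folds against the floor of 3 counts cover counting error only. Leaf markers were high everywhere: 7 clusters of the Rubisco small subunit summed to 31842 to 38634 FPKM at F1, 29978 to 31811 at F2 and 18618 to 19562 at F3, and 40 of the chlorophyll a-b binding proteins to 36244 to 39129, 71176 to 74504 and 15539 to 16660, with 1 of the 40 at 0 counts at F3. Other markers moved with stage. Those of dividing cells (13 clusters) summed to 517 to 615 FPKM at F1, 179 to 189 at F2 and 254 to 259 at F3, and 2 of them were at 0 counts at F3. Those of xylem and secondary wall (13) summed to 84.4 to 99.7 FPKM at F1 and 23.9 to 30.7 at F2. At F3 they summed to 0.71 to 1.40, with 6 at 0 counts. Guard cell markers were sought by the names FAMA, MUTE, SPEECHLESS, KAT1 and SLAC1. The 2 found summed to 14.29 to 16.8 FPKM at F1, 13.3 to 14.5 at F2 and 0.61 to 1.02 at F3. The sum of those of senescence (7) rose from 20.1 to 26.1 FPKM through 89.2 to 94.6 to 207 to 223, with 2 at 0 counts at F2 and 1 at F3. Of these 7, 5 were called up and 1 down from F1 to F3, against 35.0% and 34.7% of all clusters. The part of these markers in the clock values was not tested. In whole leaves, fewer cells of a type and less RNA per cell cannot be told apart.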

How the data were processed

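The authors sequenced leaf mRNA as 150 bp paired-end reads and deposited a table of transcript clusters that they had called in at least 1 comparison with DESeq2. Which assembler, aligner and counter they ran is not given in the sources used here. Labels and paper name different kits, and the labels name mouse genome builds. The authors deposited raw fragment counts per cluster and library, used here for tests, and the FPKM that the authors computed from them, used here for levels. The authors' fold changes and p-values were not used, and clusters outside the table were not analysed here. The table names entries as clusters and pairs them with Swiss-Prot names for 14669 of 24385; the number before the point is shared by 13560 clusters.

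Counts of all 9 libraries were fitted with edgeR 4.0.16 (quasi-likelihood test, TMM scaling, stage as factor, no filter) in R 4.3.3, and p-values were adjusted over all clusters by Benjamini and Hochberg. Standard errors of log2 fold changes were taken from the fold change and its F statistic and are approximate. Those of summed FPKM come from the SDs of the libraries. Folds against a stage at 0 used a floor of 3 counts per library. Members and lists were chosen with earlier results of these data known. The lists were morning MYB factors, day pseudo-response regulators, rice-named evening regulators, evening complex, ZEITLUPE F-box proteins (Adagio), LNK coactivators, flowering output, kinase and light-signalling regulators, and the KEGG pathway; no cluster was named after CCA1, ELF3, LUX, JMJ30 or TCP21. Named were the 6 listed clusters, the other clusters of the rule from 1 FPKM in a stage, the 3 most abundant of each list, and the 5 clusters most like each gene's sum with at least 10 FPKM. Groups came from the stage in the labels. Fits were also run on simulated data in which few clusters changed, and only at F3. Most of the real table changed, so that run does not test the scaling used here. Python 3.11.15 with pandas 2.3.3 and matplotlib 3.10.9 did the rest.

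Alternatives were DESeq2 1.42.0, RLE scaling, limma 3.58.1 on log2(FPKM + 1) and log2(FPKM + 0.1), a filter at 1 FPKM, the compared stages alone, a block for the replicate number, adjusted p without a fold threshold, clusters of a number summed, KEGG orthologs, listed clusters alone and each library left out. Library sizes implied by FPKM were added after the data were seen.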

Additional observations from a re-analysis of the deposited data

How the results depend on the processing

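The rise of the summed evening genes up to F3, from either earlier stage, kept its direction under every alternative run. The F1 to F3 log2 ratio of APRR5 was 5.05 by KEGG ortholog and that of APRR1 5.61 and of GIGANTEA 1.98 with the listed clusters alone. From F2 to F3 APRR5 gave 4.45 on summed counts with TMM, 4.63 with RLE and 3.94 by KEGG ortholog, and GIGANTEA gave 1.41 with TMM and 1.32 for its listed cluster. From F1 to F2 APRR5 gave 0.73 with TMM and 0.56 with RLE. APRR1 reversed to -0.0076 with RLE and gave 1.54 for its listed cluster. With a library left out it ranged from -0.014 (without F2 replicate 2) to 0.28. RLE shifted the median of all clusters by -0.17 from F1 to F2 and raised it by 0.18 between F2 and F3. Library sizes implied by FPKM raised it by 0.11 between F1 and F3, and by 0.16 between F2 and F3.

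The median of the 6 listed clusters was 1.16, 5.04 and 3.79 by edgeR for F1 to F2, F1 to F3 and F2 to F3. On log2(FPKM + 1), which understates low clusters by construction, it was 0.58, 3.87 and 3.20. From F2 to F3 it was 3.97 with RLE and 3.95 with sizes implied by FPKM, and from F1 to F2 it ranged from 0.94 to 1.30 with a library left out. Calls over all clusters went from 9955 to 5928 (2426 up, 3502 down) from F1 to F2 and from 15923 to 10201 from F2 to F3 with limma on log2(FPKM + 1), and were 8305 to 10008 and 14772 to 15971 with a library left out. For other clock genes, 46 calls from F1 to F2 became 30 with that limma fit and 24 of 62 features with clusters of a number summed, and 64 from F1 to F3 became 40 of 62. From F2 to F3 the split of 40 up and 32 down became 36 and 17 with limma on log2(FPKM + 1). Of 41 calls of the 22 named clock partners, the 3 most abundant of each list, 33 held in every alternative run on single clusters. Sums over a cluster number were not counted there. With them some of the held calls were lost, such as that of Cluster-51694.4 from F1 to F3 (-0.60 for its number). The cause of these shifts was not tested.

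No pairing of the libraries by replicate number was seen, which does not exclude one. Over 9 same-number pairs the correlation of deviations was -0.02 to 0.03, and 0 exceeded 0.1. In 8 of 18 matches of a library to another stage it correlated best with its own number. With the replicate block, calls over all clusters were 8981, 16400 and 15143, those of other clock genes 46, 64 and 73, and the F1 to F3 log2 ratio was 5.20 for APRR5, 4.21 for APRR1 and 2.44 for GIGANTEA. At this depth, clusters under 1 FPKM at F1 and F2 rest on few counts, and small differences between those stages may not be detectable.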
